A study of Mus musculus with 6 samples.

Results

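Vegfa, the tissue factor gene F3 and 8 related genes of vessel growth and oxygen sensing were followed in sorted cells of mouse cortex. The cells were sorted by astrocyte reporters, from mice with and without a stab wound. Markers of other cell types were also bright in these pools, as given below. The members were all probe sets that the platform annotation assigns to exactly 1 of the symbols Vegfa, Vegfb, Vegfc, Pgf, Angpt1, Angptl4, F3, Hif1a, Epas1 and Egln3. That gave 20 of the 45037 probe sets tested and 10 of 18193 genes. The genes were brought together with the differences between the groups already known, so the differences and calls given for them describe these arrays and are no independent evidence.

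Expression was measured on 6 Affymetrix arrays, each with RNA of eGFP-positive cells that had been sorted out of somatosensory cortical grey matter. The 3 reactive arrays carried cells of TgN(hGFAP-EGFP) GFEA mice, whose eGFP is under a human GFAP promoter. Their cortex had been stabbed 5 days earlier, to a depth of 0.7 mm and over a length of 1 to 1.2 mm. The 3 non-reactive arrays carried cells of the matching region of uninjured Tg(Aldh1l1-eGFP)OFC789Gsat mice, whose reporter is driven from Aldh1l1. All mice are labelled FVB/N and were 2 to 3 months old, and each array pooled cells of about 15 animals. The protocol also describes BrdU labelling of dividing cells and does not say whether the mice behind the arrays received it. Injury and reporter line coincide in this design, so their contributions to any difference cannot be told apart. In sorted pools, fewer cells of a type and less RNA per cell cannot be told apart either.

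VEGF-A is the main secreted signal for growth and permeability of blood vessels, and astrocytes are among its sources in the brain. Tissue factor, the product of F3, is a membrane receptor that binds factor VII and starts coagulation; in the brain it is made mostly by astrocytes. When oxygen is low, the hypoxia-inducible factors encoded by Hif1a and Epas1 escape hydroxylation by enzymes such as Egln3, pair with Arnt and switch on genes that include Vegfa, Angptl4 and Egln3 itself.

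Before the members, the arrays themselves were compared. Reactive arrays correlated with one another at 0.901 to 0.921 and non-reactive arrays at 0.95 to 0.963, so the reactive arrays differed more among themselves. All 12 astrocyte markers had means above 4.74 in both groups, where 4.74 is the median of all probe set means on the log2 scale. Of all 18193 genes limma called 102 lower and 71 higher in the reactive arrays, and 15% had an unadjusted p under 0.05. Of the 12 astrocyte markers, 4 were called lower (Slc1a3, Gja1, Sox9 and Slc4a4) and 1 higher (Gfap, whose promoter the reactive sort used). A difference below 0 was found for 11 of the 12, against 39.3% of all genes, with a median of -1.65. An unadjusted p under 0.05 was also found for 11. Gfap, at 3.12, was the 1 above 0 and is part of the summed level. The brightest astrocyte marker, Aldoc, measured 12.67 and 13.77 without a call. The summed level of the astrocyte list ran from 113.2 to 117.5 in the reactive and from 127.9 to 133.1 in the non-reactive arrays. The 15 microglia and macrophage markers summed to 141.9 to 147.5 and 113.6 to 117.4, with 6 called higher (C1qa, C1qc, Cd68, Tyrobp, Trem2 and Fcer1g) and Itgam below 4.74 in both groups. All 15 had a difference above 0, against 60.7% of all genes, with a median of 1.77, and 10 had an unadjusted p under 0.05. The brightest of them, Csf1r, measured 12.25 and 11.83. The 9 blood leukocyte markers summed to 62.4 to 69.7 and 45.6 to 48.7, with Cd52, Lyz2 and Plac8 called higher and S100a9 below 4.74 in both groups. Of these 9, 8 had a difference above 0, with a median of 1.93, and 5 had an unadjusted p under 0.05. The 10 oligodendrocyte markers summed to 96.5 to 101.1 and 79.8 to 90.2, with Ermn called higher and Mbp bright in both groups at 13.33 and 13.83. Mbp, at -0.49, was the 1 marker of this list below 0. The other 9 were above 0, the median of the list was 1.52, and 9 had an unadjusted p under 0.05. The 11 neuronal markers summed to 87.8 to 104.3 and 95.04 to 100.9, with 0 called and Camk2a bright at 12.63 and 13.07. The 11 endothelial markers reached 67.1 on reactive replicate 3, against 49.3 to 53.8 on the other 5 arrays, and the 9 fibroblast and meningeal markers reached 57.5 there, against 41.1 to 43.9. Limma called none of either list, with 1 endothelial and 0 fibroblast markers at an unadjusted p under 0.05. Pecam1, Cdh5, Tie1, Ocln, Lum and Aldh1a2 lay below 4.74 in both groups, and the brightest were Egfl7 (7.68 and 6.81) and Pdgfra (7.97 and 7.30). The 11 pericyte and smooth muscle markers summed to 53.8 to 64.1 and 54.5 to 59.1. Limma called 0 of them, with 3 at an unadjusted p under 0.05, Pdgfrb brightest at 6.37 and 8.61, and Abcc9, Anpep, Myh11 and Vtn below 4.74 in both groups. The 3′ minus 5′ difference of the array's control probe sets, a measure of RNA and amplification quality, was lower in the reactive arrays for Gapdh, Actb and Pcx (by -1.02, -1.66 and -2.02 between the means) and higher for 18S rRNA (by 1.98). The part of cell mixture and RNA quality in the differences below was not tested.

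F3 and Vegfa were the members that passed the test over all probe sets, and both were lower in the reactive arrays. The test was limma on the log2 values with Benjamini-Hochberg adjustment and a threshold of 0.05. Of the 20 member probe sets 2 were called lower and 0 higher. At an unadjusted p under 0.05 there were 5 member probe sets, those of F3, Vegfa, Vegfb, Hif1a and Epas1 with the highest means of each gene, against 13.2% of all probe sets. Over all probe sets 0.584% were called lower and 0.266% higher, shares from which nothing is read here because the members were chosen on this comparison. At the level of genes 2 of 10 were called lower, against 0.561% of all genes. Of the 10 representative probe sets, each the brightest of its gene, 8 had a difference below 0, with a median of -0.33 against 0.12 over all genes.

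**Figure D1:**
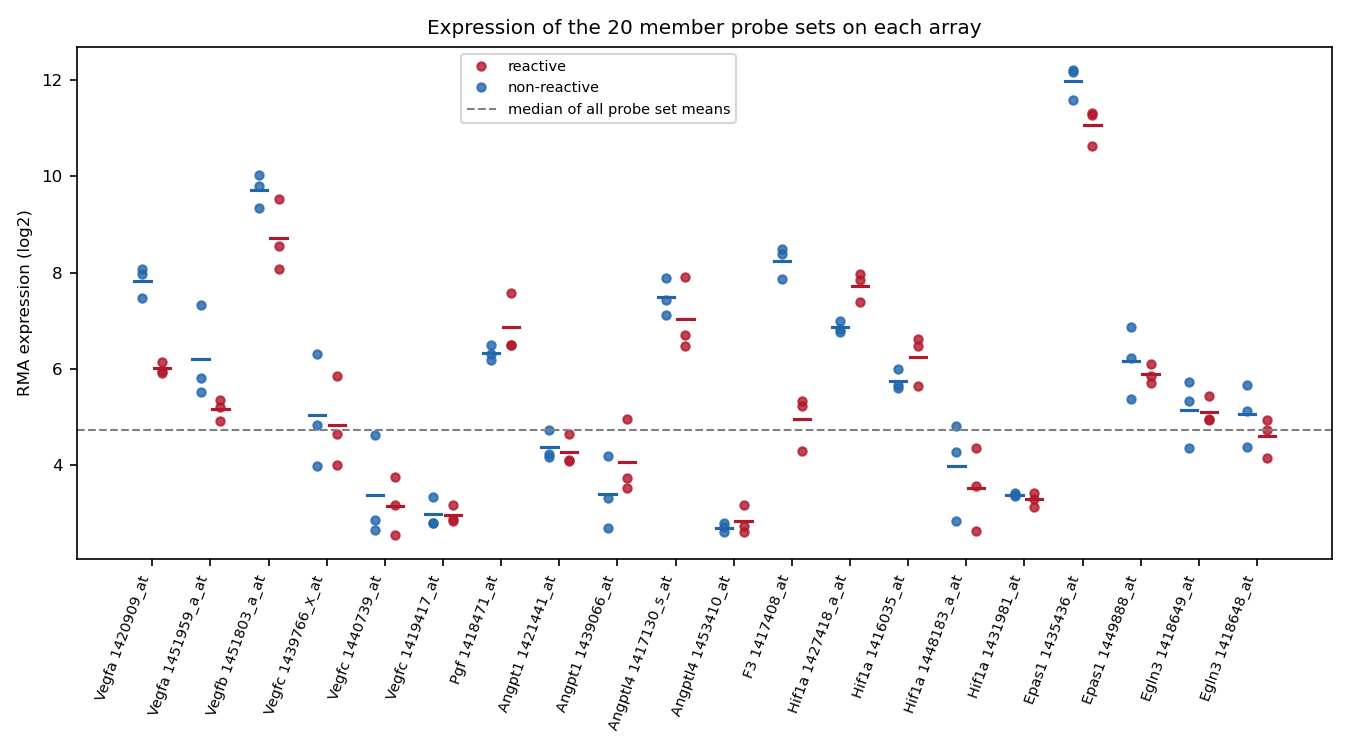
RMA expression (log2) of each member probe set on each array; points are arrays, short bars group means (3 arrays each) and the dashed line the median of all probe set means, 4.74. The groups lie well apart for F3 and for the first Vegfa probe set, and 7 probe sets have means over all 6 arrays below the dashed line.

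F3 was read by 1 probe set. Its values were 4.30, 5.34 and 5.23 on reactive replicates 1, 2 and 3, and 8.50, 8.39 and 7.86 on the non-reactive arrays. Every reactive array lay below every non-reactive one, with a gap of 2.53 between the nearest arrays. The means were 4.96 ± 0.57 and 8.25 ± 0.34 (log2, SD, n = 3 each). F3 fell 9.80-fold, a log2 difference of -3.29 (SE 0.34, 95% interval -4.11 to -2.47, limma adjusted p = 0.0234). Only 16 of 18193 genes had a lower difference. The reactive mean lay close to 4.74 and the values carry no detection calls, so the size of the fall is uncertain. The call was lost without non-reactive replicate 1 (limma adjusted p = 0.0909), 2 (0.098) or 3 (0.0707). In each of these the difference stayed between -3.49 and -3.17.

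Vegfa was read by 2 probe sets that gave different sizes. The brighter measured 5.97, 5.92 and 6.15 on the reactive and 7.47, 7.96 and 8.07 on the non-reactive arrays. The reactive arrays were tightly grouped, and the groups did not overlap. From 7.83 ± 0.32 to 6.01 ± 0.12 (log2, SD, n = 3 each), Vegfa fell 3.53-fold (log2 difference -1.82, SE 0.23, 95% interval -2.37 to -1.27, limma adjusted p = 0.0344). Of all genes 1.57% had a lower difference. The other probe set gave 5.35, 4.92 and 5.22 on the reactive arrays and 5.81, 5.52 and 7.32 on the non-reactive ones. Its groups did not overlap either, but non-reactive replicate 3 stood above the rest, and the difference of -1.05 (SE 0.48) did not pass (limma adjusted p = 0.411). With the mean of both probe sets Vegfa differed by -1.44 and the call was lost (limma adjusted p = 0.0822). It was also lost when any 1 array was left out, with limma adjusted p of 0.0825, 0.074 and 0.0612 without reactive replicates 1, 2 and 3 and 0.0795, 0.133 and 0.115 without non-reactive replicates 1, 2 and 3.

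Since F3 and Vegfa were both lower, the bases just before their RefSeq start sites are shown for comparison. RefSeq promoters of build GRCm38.p6 were found for 7 of the 10 genes, and Angpt1, Angptl4 and Epas1 had none. The sequences run from -250 to -1 relative to the start, 5′ to 3′ on the gene's strand, for F3 at chr3:121723287-121723536 (plus strand) and for Vegfa at chr17:46032378-46032627 (minus strand). Capitals mark matches on either strand to ACGTG or GCGTG, the core of the hypoxia response element, TGANTCA, the site of the AP-1 factors, and GGGCGG, the GC box of Sp1. Capitals that touch belong to neighbouring or overlapping matches.
F3: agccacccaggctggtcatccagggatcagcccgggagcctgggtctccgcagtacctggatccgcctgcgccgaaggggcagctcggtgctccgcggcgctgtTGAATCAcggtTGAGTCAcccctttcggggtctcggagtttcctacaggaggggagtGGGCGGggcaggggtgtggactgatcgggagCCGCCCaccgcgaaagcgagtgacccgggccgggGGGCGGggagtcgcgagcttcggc
Vegfa: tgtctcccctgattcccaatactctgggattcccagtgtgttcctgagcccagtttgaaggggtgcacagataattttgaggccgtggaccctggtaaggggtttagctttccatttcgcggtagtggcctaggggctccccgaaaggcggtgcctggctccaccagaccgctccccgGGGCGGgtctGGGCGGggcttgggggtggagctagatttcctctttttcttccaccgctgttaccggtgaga

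The F3 window held 2 AP-1 matches, from -146 to -140 and from -135 to -129, and 3 GC boxes, from -89 to -84, -58 to -53 and -24 to -19. The Vegfa window held 2 GC boxes, from -72 to -67 and -62 to -57, and no AP-1 match. Neither window held ACGTG or GCGTG. Sequence further upstream than -250 was not searched, so a hypoxia response element lying there would not be seen. Among all 32851 promoters listed by RefSeq, TGANTCA occurred in these 250 bases of 6.75%, GGGCGG in 32.7% and ACGTG or GCGTG in 38.6%. A hypoxia core was present in 5 of the 9 member promoters. Those were a further Vegfa start at chr17:46025164-46025413, the Vegfb promoter, 1 of the Pgf starts, and the promoters of Hif1a and Egln3. That further Vegfa window lies downstream of the Vegfa start shown above, on the same strand. Its matches may therefore fall in transcribed or coding sequence of Vegfa and are not read as promoter elements. In Hif1a 1 of the sites is the palindrome CACGTG, which counts on both strands. A match describes letters in the window and not binding.

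None of the other VEGF ligands passed the test. Vegfb, a ligand of Flt1 linked to survival of vessels and neurons, measured 8.56, 9.53 and 8.08 on the reactive and 10.02, 9.80 and 9.34 on the non-reactive arrays. Its groups overlapped through reactive replicate 2, and the difference of -0.996 (SE 0.40, 95% interval -1.96 to -0.03) did not pass (limma adjusted p = 0.366). Without reactive replicate 2 Vegfb differed by -1.40, and without reactive replicate 3 by -0.67. Vegfc, a ligand of lymphatic vessels, was read by 3 probe sets with differences of -0.20 (SE 0.69), -0.23 (SE 0.58) and -0.02 (SE 0.24). The last of these 3 had both means below 3, and the brightest ran from 4.01 to 5.85 in the reactive and from 3.98 to 6.30 in the non-reactive arrays. Vegfc thus varied by more within each group than between them. Pgf, the placental growth factor that binds Flt1, measured 7.58, 6.50 and 6.50 on the reactive and 6.19, 6.30 and 6.50 on the non-reactive arrays. Its difference of 0.53 (SE 0.34, 95% interval -0.27 to 1.33) rested on reactive replicate 1, without which it was 0.17. The values of Pgf on reactive replicates 2 and 3 and non-reactive replicate 3 are equal to the last deposited decimal, as happens on 3 or more arrays for 54 of the 45037 probe sets.

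Angpt1, a ligand of the endothelial receptor Tek that stabilises vessels, lay below 4.74 in both groups on both its probe sets. They differed in sign, at -0.10 (SE 0.27) and 0.67 (SE 0.51), and neither passed. The brighter measured 4.10, 4.08 and 4.65 on the reactive and 4.17, 4.24 and 4.74 on the non-reactive arrays, so the ranges of the groups nearly coincided. Angptl4, a secreted inhibitor of lipoprotein lipase that is induced by hypoxia and by fatty acids, measured 6.71, 6.48 and 7.92 on the reactive and 7.12, 7.44 and 7.89 on the non-reactive arrays. The highest reactive array was replicate 3. Its difference was -0.45 (SE 0.42, 95% interval -1.46 to 0.56, limma adjusted p = 0.673). Over the left-out arrays it ran from -0.17, without reactive replicate 2, to -0.89, without reactive replicate 3. It was -0.28 without reactive replicate 1, -0.24 without non-reactive replicate 3 and -0.16 when its probe sets were averaged. The dim probe set of Angptl4, at 2.84 and 2.71, differed by 0.14.

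Of the hypoxia-inducible factors, Hif1a and Epas1 differed in opposite directions and neither passed. Hif1a, the broadly expressed factor, measured 7.38, 7.98 and 7.84 on the reactive and 6.78, 6.83 and 7.00 on the non-reactive arrays at its brightest probe set. Every reactive array was above every non-reactive one. The difference was 0.86 (SE 0.23, 95% interval 0.32 to 1.41, limma adjusted p = 0.181). Its next brightest probe set differed by 0.49 (SE 0.31), and the remaining ones, both below 4.74 in each group, by -0.46 (SE 0.62) and -0.10 (SE 0.19). With the mean of the 4 probe sets Hif1a differed by 0.20.

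Epas1 encodes HIF-2α, known for its expression in endothelium and astrocytes. It was the brightest member, with 11.32, 10.62 and 11.27 on the reactive and 12.20, 11.59 and 12.16 on the non-reactive arrays. The groups did not overlap, and the closest arrays, reactive replicate 1 and non-reactive replicate 2, lay 0.27 apart. The difference was -0.91 (SE 0.29, 95% interval -1.60 to -0.22, limma adjusted p = 0.259). Its other probe set, at 5.89 and 6.16, differed by -0.27 (SE 0.39). Egln3, a prolyl hydroxylase that marks both factors for degradation, measured 4.97, 4.93 and 5.44 on the reactive and 5.33, 5.73 and 4.35 on the non-reactive arrays. The difference was -0.02 (SE 0.38, 95% interval -0.94 to 0.89), and its sign turned with the array left out. The other Egln3 probe set differed by -0.46 (SE 0.38). In all, 4 of 20 member probe sets had every reactive array below every non-reactive one (F3, both of Vegfa and the brighter of Epas1) and 1 the reverse (Hif1a), against 8.08% and 12.8% of all probe sets.

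**Figure D2:**
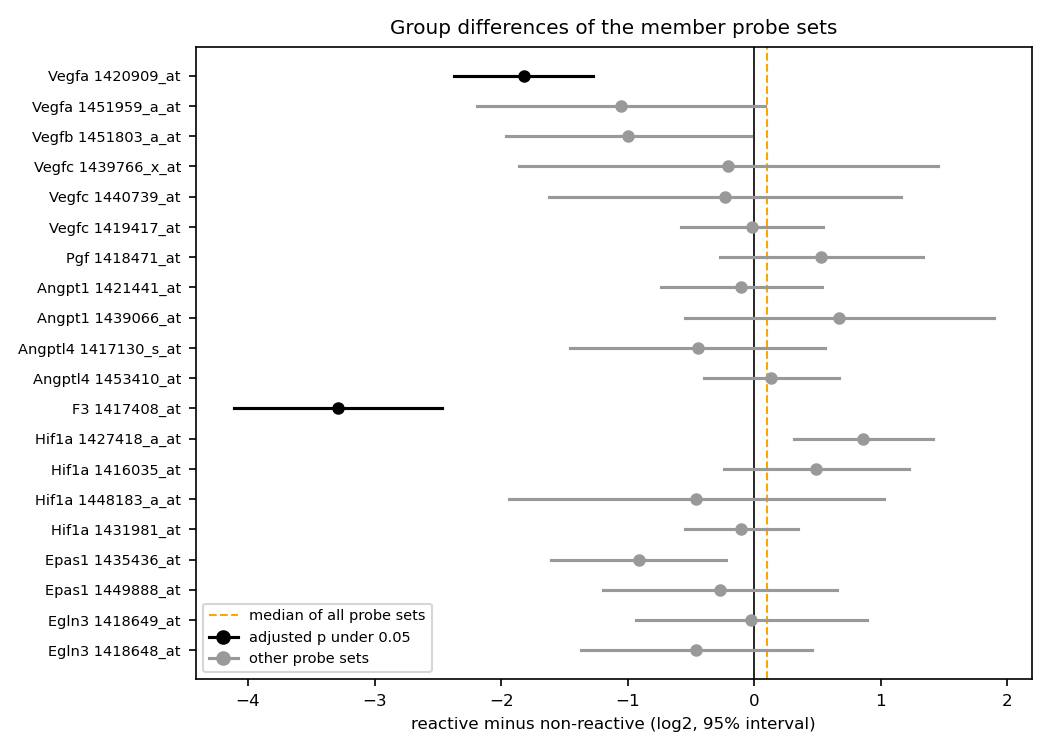
Log2 difference, reactive minus non-reactive, of each member probe set with its 95% interval from limma; black marks an adjusted p under 0.05 and the dashed line the median of all probe sets, 0.10. F3 at -3.29 and the first Vegfa probe set at -1.82 are black, and the intervals of most other probe sets span 0.

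Genes around the members were taken from 5 lists of 104 genes, of which 94 were measured, each by its brightest probe set. With the brightest probe set of each gene limma called none, in either direction, while 0.951% of all genes were called. Over all 198 probe sets of these genes 1 was called higher, a further probe set of Elob, and 0 lower. At an unadjusted p under 0.05 there were 14 of the 94, or 14.9%, against 15.0% of all genes. Without reactive replicate 3 there was 1 call, F13a1 (limma difference 2.24, SE 0.22, adjusted p = 0.0415). Angptl6, Nrp1, F2r, Plat, Elob, Eloc, Pgk1, Aldoa, Higd1a and Fam162a are named for their brightness within a list, and the other genes of these lists were picked out after their values were seen.

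Of 13 receptors and further ligands of the VEGF and angiopoietin families 10 had differences above 0, with a median of 0.22. Of all genes 60.7% were above 0, and their median was 0.12. Limma called 0, and 1, or 7.69%, had an unadjusted p under 0.05 against 15.0% of all genes. Vegfd, a ligand of Flt4 and the remaining VEGF gene of the mouse, measured 2.97, 3.91 and 3.35 on the reactive and 5.16, 6.04 and 4.99 on the non-reactive arrays. All reactive values lay below all non-reactive ones, with a difference of -1.98 (SE 0.37) that did not pass (limma adjusted p = 0.0811). The reactive mean of 3.41 lay below 4.74, so the size is uncertain. Further Vegfd probe sets differed by -2.04 (SE 0.44) and -0.60 (SE 0.50). Nrp1, a co-receptor of VEGF-A, measured 8.05, 7.95 and 9.92 on the reactive and 7.66, 7.41 and 8.08 on the non-reactive arrays at its brightest probe set, a difference of 0.93 (SE 0.55). The groups did not overlap at a second Nrp1 probe set, which differed by 1.56 (SE 0.30, limma adjusted p = 0.0846), nor at another, dimmer one, at 0.88 (SE 0.38), and the dimmest differed by -0.56 (SE 0.82). Kdr, the main signalling receptor for VEGF-A, measured 6.29, 5.87 and 8.73 against 5.86, 5.41 and 6.07, a difference of 1.18 (SE 0.73). Kdr and the brightest Nrp1 probe set were highest on reactive replicate 3, the array with the highest endothelial and fibroblast marker sums, whose part was not tested. Kdr is itself among the endothelial markers summed, so its value adds to that sum. The second Nrp1 probe set measured 7.79, 7.27 and 7.89 on the reactive arrays and the dimmer one 6.87, 6.15 and 5.50, lowest on that array. Angptl6 differed by 0.54 (SE 0.34).

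Around F3, genes of coagulation and its control were mostly above 0 while F3 was lower. Of 21 measured genes 19 had a difference above 0, against 60.7% of all genes, with a median of 0.44. Limma called 0, and 2, or 9.52%, had an unadjusted p under 0.05 against 15.0% of all genes. For 8, or 38.1%, every reactive array lay above every non-reactive one, against 13.5% of all genes. The reverse held for 1, or 4.76%, against 8.2% of all genes. The means of 12 of the 21 lay below 4.74, against 6081 of all 18193 genes. The shares of all genes above 0 or without overlap are therefore not like baselines for this dimmer list. F13a1, a clot-crosslinking subunit also made by macrophages, measured 7.17, 6.98 and 10.20 on the reactive and 4.95, 4.80 and 4.75 on the non-reactive arrays. The groups did not overlap, and the difference was 3.28 (SE 0.83, limma adjusted p = 0.161). Plaur, the urokinase receptor, differed by 1.71 (SE 0.51), Thbd, the thrombin-binding thrombomodulin, by 1.41 (SE 0.62) and F10, the factor activated by the tissue factor complex, by 1.36 (SE 0.78). Thbd stood at 7.11 and F10 at 7.57 on reactive replicate 3, against 4.70 to 4.93 and 4.43 to 4.87 on the other reactive arrays, and the other F10 probe sets differed by -0.02 and 0.06. F7, the ligand of tissue factor, differed by 0.67 (SE 0.62) and Tfpi, its inhibitor, by 0.46 (SE 0.34). Dimmer Tfpi probe sets differed by 2.68 (SE 1.32), 0.72 (SE 0.24) and -0.18 (SE 0.26). The thrombin receptor F2r differed by 1.15 (SE 0.64) and the plasminogen activator Plat by 1.09 (SE 0.75), and the groups overlapped for both. Their dimmer probe sets differed by 1.32 and -0.32.

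The oxygen-sensing genes and partners of the hypoxia-inducible factors had 13 of 17 differences below 0 and a median of -0.31. Of all genes 39.3% were below 0, and their median was 0.12. With the brightest probe sets limma called 0, and 2, or 11.8%, had an unadjusted p under 0.05 against 15.0% of all genes. Crebbp, an acetyltransferase that serves as co-activator, differed by -2.13 (SE 0.75, limma adjusted p = 0.301), and 3 further probe sets of the gene by -2.22, -0.67 and -0.84. Vhl, which recognises hydroxylated factors, differed by -0.57 (SE 0.39) and by 0.15 at its other probe set. The hydroxylase Egln1 differed by -0.10 (SE 0.27) at its brightest probe set. Its second, dimmer probe set, with means of 4.45 and 6.03, differed by -1.58 (SE 0.53), and its groups did not overlap. Elob, an elongin of the Vhl complex, differed by 0.46 (SE 0.29) at its brightest probe set. Its other probe set measured 11.48, 11.46 and 11.28 on the reactive and 10.06, 9.88 and 9.96 on the non-reactive arrays, without overlap, and rose by 1.44 (SE 0.19, limma adjusted p = 0.0354). That call was lost whichever array was left out, with limma adjusted p of 0.0613 to 0.141. The partner elongin Eloc differed by 0.58 (SE 0.19) at its brightest probe set and by -1.08, -0.45 and -0.23 at the others.

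**Figure D3:**
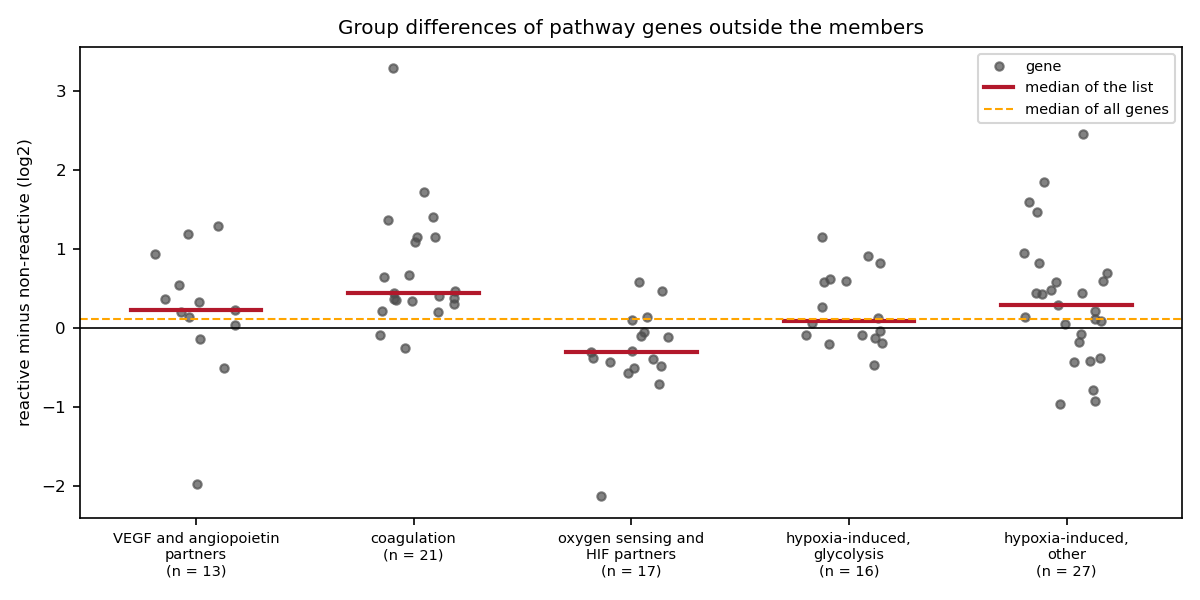
Log2 difference, reactive minus non-reactive, of each measured gene in 5 lists; points are genes, spread sideways for legibility, red bars list medians and the dashed line the median of all genes, 0.12. The list medians run from -0.31 for oxygen sensing to 0.44 for coagulation, and no gene shown passed the test at its brightest probe set, which is the one drawn.

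None of the hypoxia-induced genes outside the members was called beside the fall of Vegfa. Of 43 measured, 28 had a difference above 0, or 65.1% against 60.7% of all genes, and 9, or 20.9%, had an unadjusted p under 0.05 against 15.0% of all genes. Their median was 0.22. With cyclic loess 26 were above 0, and their median was 0.23 against 0.06 over all genes. The 60.7% belongs to the deposited scaling and is no baseline for that count. Among the 16 genes of glucose uptake and glycolysis the median was 0.09. Pgk1, a glycolytic kinase, measured 12.22, 11.77 and 12.07 on the reactive and 12.23, 12.07 and 12.04 on the non-reactive arrays, a difference of -0.09 (SE 0.21, 95% interval -0.59 to 0.40). Aldoa, an aldolase, differed by 0.59 (SE 0.21) and Ldha, lactate dehydrogenase A, by 0.12 (SE 0.39). The glucose transporters ran from Slc2a1 at -0.48 (SE 0.42), the lowest of the list, to Slc2a3 at 1.15 (SE 0.47, limma adjusted p = 0.366), the highest. The other Slc2a1 probe sets differed by -0.02 and -0.11, and those of Slc2a3 by 0.95, 0.30 and 0.40.

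The 27 other hypoxia-induced genes spread more widely, from -0.97 to 2.45. Hilpda, a lipid droplet protein, measured 7.20, 6.10 and 6.39 on the reactive and 4.42, 4.94 and 4.82 on the non-reactive arrays. The groups stood apart, and the difference of 1.84 (SE 0.33, 95% interval 1.04 to 2.64) had a limma adjusted p of 0.0737. The non-reactive mean of Hilpda, 4.73, lay at the median of all probe sets, so its size is uncertain. Plin2, which also coats lipid droplets, differed by 1.59 (SE 0.54), Hmox1, a heme-degrading enzyme, by 1.46 (SE 0.59) and Igfbp3, a binding protein of insulin-like growth factors, by 2.45 (SE 0.80). Plin2, Hmox1 and Igfbp3 were highest on reactive replicate 3, at 10.97, 7.36 and 7.56, and the non-reactive mean of Igfbp3 was 3.10. At the other end P4ha1, a collagen prolyl hydroxylase, measured 6.26, 6.00 and 5.96 on the reactive and 7.40, 6.80 and 6.93 on the non-reactive arrays, a difference of -0.97 (SE 0.24, limma adjusted p = 0.146). Its other probe set, below 4.74 in both groups, differed by -0.05. Higd1a and Fam162a, mitochondrial proteins, differed by 0.28 (SE 0.32) and 0.94 (SE 0.30) at their brightest probe sets.

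**Figure D4:**
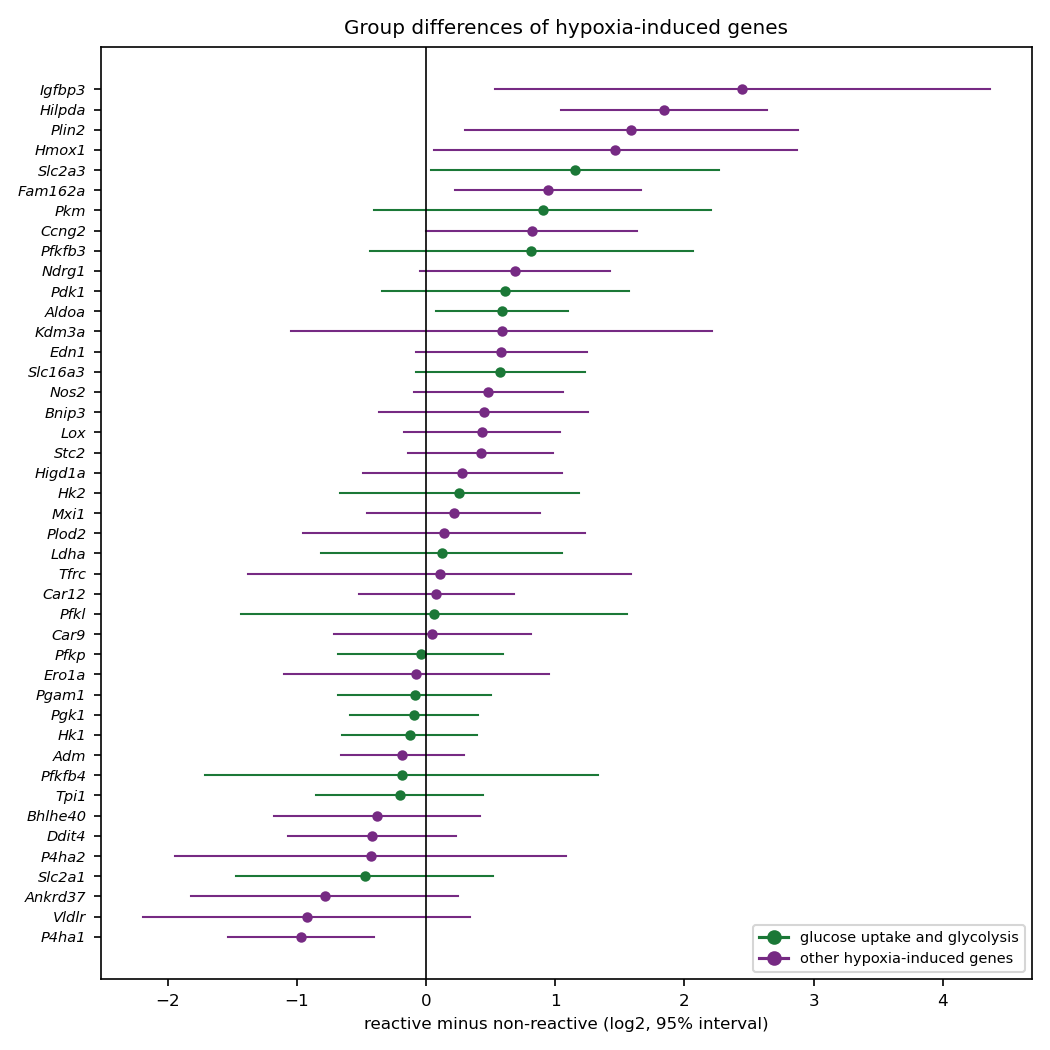
Log2 difference, reactive minus non-reactive, with its 95% interval for each of the 43 hypoxia-induced genes, coloured by function. Differences run from -0.97 for P4ha1 to 2.45 for Igfbp3, and Pgk1 and Ldha lie near 0.

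The genes whose pattern over the 6 arrays was most like that of F3, among 12111 genes with a mean above 4.74, were Rsf1, Zfp91, Bdp1, Nhlrc3 and Dnajc3, with Pearson r of 0.996, 0.994, 0.993, 0.993 and 0.992. Their differences were -1.73, -1.29, -2.07, -1.80 and -2.45. Those most like the brighter Vegfa probe set were Qk, Pex6, Lrp4, Phka1 and Fbrsl1, with r of 0.995, 0.994, 0.993, 0.992 and 0.991 and differences of -0.59, -0.63, -2.41, -1.26 and -2.17. The arrays of a group share injury state and reporter line, and all 10 genes have lower means in the reactive group, as F3 and Vegfa do. Their direction came with the selection, because the values of F3 and Vegfa differ mainly between the groups.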

How the data were processed

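Gene expression was read from the table of log2 values that the authors deposited. Per the submitters' processing notes they come from RMA, the robust multi-array average. Its version and settings, and a genome build, are not given in the sources used. RMA makes array distributions alike, and the array medians were 4.65 to 4.73. It gives no detection calls, so the median of all probe set means, 4.74, served as a mark of low signal. The 64 control probe sets were left out, which left 45037, of which 34945 have exactly 1 symbol in the platform annotation, 932 several and 9160 none.

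The members and gene lists were chosen with earlier results of these data known. Lists were matched through gene identifiers of a RefSeq table of GRCm38.p6. Each gene was represented by its probe set of highest mean. The rule for named genes took all members, up to 4 called and 2 further brightest genes per pathway list, the 5 genes most correlated with Vegfa and with F3, and the called and brightest markers. Other pathway genes named were picked after their values were seen. The fit was tested on simulated data. Lists were described by counts and medians without a set test.

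Reactive minus non-reactive was fitted over the 6 arrays by limma 3.58.1 (lmFit, then eBayes; R 4.3.3), two-sided, with Benjamini-Hochberg adjustment over all 45037 probe sets and a threshold of 0.05. Values after ± are SD, SE is the moderated standard error and intervals are at 95%. The 3 arrays per group limit the precision. The labels call the arrays biological replicates of pooled cells, and no batch or scan time was given, so a batch cannot be told apart from the groups. Alternatives were other scalings, other variance models, array weights, filters on dim probe sets or on those whose names end in _x_at, _s_at or _a_at, probe set means, a replicate block and leaving out each array.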

Additional observations from a re-analysis of the deposited data

How the results depend on the processing

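F3 and Vegfa stayed below 0 under all 16 alternatives each. F3 kept its call in 12 and Vegfa in 7. With the replicate number as a block F3 (limma -3.29, adjusted p = 0.111) and Vegfa (-1.82, adjusted p = 0.129) both lost it, and 0 member probe sets were called. The labels do not say whether the replicate numbers pair the arrays. Deviations of same-numbered arrays from their group means correlated at -0.07, -0.11 and 0.04. With 3 arrays per group the deviations within a group are tied to one another, so these values cannot decide it. With a variance trend Vegfa (-1.82) lost its call (limma adjusted p = 0.062) and 1 member probe set was called. With the mean of its probe sets Vegfa was -1.44. When each array was left out in turn, F3 ranged from -3.49 to -2.96, Vegfa from -2.00 to -1.71, member calls from 0 to 1 and pathway calls from 0 to 1. The called Elob probe set, whose alternatives were chosen after seeing the data, lost its call with the replicate block too (limma 1.44, adjusted p = 0.148). The causes of these lost calls were not tested.

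Members without a call turned sign as follows. Egln3 was 0.030 after another quantile normalisation and -0.42 to 0.27 over the left-out arrays. Vegfc was -0.73 to 0.43 and Angpt1 -0.29 to 0.077 over the left-out arrays, and Angpt1 was 0.28 with the mean of its probe sets. Angptl4 was 0.14 without suffixed probe sets, where its dim probe set is the one left. Vegfb had no value without suffixed probe sets and Angpt1 none without dim ones. Low signal limits Angpt1, Vegfc and the reactive level of F3.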
